A study of Mus musculus with 6 samples.

Results

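The uniporter complex of the inner mitochondrial membrane and carriers put forward for calcium exit were followed through 8 genes: Mcu, Mcub, Smdt1, Mcur1, Micu2, Micu3, Slc8b1 and Letm1. They are the rows of the deposited table with those gene names, 8 of 54352 rows. RNA of whole mouse hearts was sequenced in 6 libraries in 3 groups of 2. Of these groups, 2 were C57BL/6 mice with type 2 diabetes (T2D), induced from an age of 12 weeks with food that drew 60% of its calories from fat and 1 injection of 75 mg/kg streptozotocin, a beta cell toxin. An adeno-associated virus (AAV) was given into the jugular vein 16 to 18 weeks past the streptozotocin dose, and the mice were studied 4 weeks later, 5 to 6 months after induction. In the T2D dnMCUb group the virus encoded mouse MCUb with the changes W246R and V251E and a FLAG tag at its C-terminus. In the T2D empty vector group the virus carried no cargo. The control group ate regular chow, had no diabetes and is labelled with no vector, so it differs from both other groups in diet, streptozotocin and virus together. Starting age and time of study are not listed for the control group. The labels do not name the promoter of the vector or tell whether both libraries of a group stem from different animals. The p-values below therefore measure the spread between these libraries, which may be technical.

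Calcium enters the mitochondrial matrix through a pore of MCU subunits. MCUb, a close relative of MCU, joins the pore and lowers its conductance. EMRE, the product of Smdt1, holds the pore to the MICU proteins, which sense calcium outside the membrane and keep the channel shut at rest, and MCUR1 is an assembly factor. Calcium leaves through NCLX, the sodium-calcium exchanger encoded by Slc8b1, while LETM1 is an exchanger of protons for which potassium and calcium have both been put forward as the partner ion. In heart muscle, matrix calcium stimulates dehydrogenases that feed the respiratory chain.

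The part of the Mcub coding sequence that the vector alters is set beside the same part of Mcu, because the altered codons are places where both genes differ. Both stretches end just past the codons of the DIME motif, which forms the mouth of the pore. They are written 5′ to 3′ from GENCODE M21 transcripts on GRCm38 and are read from the minus strand. Capitals mark, in order, the first altered codon, the second altered codon and the 4 codons of the DIME motif.
Mcub, chr3:129916996-129917055, codons 243 to 262: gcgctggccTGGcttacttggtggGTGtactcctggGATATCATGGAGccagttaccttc
Mcu, chr10:59455003-59455062, codons 248 to 267 of Mcu-202: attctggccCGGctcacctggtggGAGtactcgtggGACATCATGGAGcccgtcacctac
Codon 246 of Mcub encoded tryptophan and codon 251 valine, as the labels' names of the changes require. The labels write the base changes as CTG>CAG and TGT>AGT. These triplets are not the codons themselves: in the stretch above, CTG begins 1 base before the first altered codon and TGT begins 1 base after the start of the second. Each replacement alters 1 base and 1 residue, and the new codons are AGG for arginine and GAG for glutamate. At the same distances before the motif, 9 and 4 codons, Mcu has codons 251 and 256, which encode arginine and glutamate. These are the residues that W246R and V251E place in the vector's MCUb. The stretches share 48 of 60 bases, and 16 of 20 codons encode the same residue.

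Values are given as the regularized log (rlog), deposited by the authors on a log2 scale. This transformation scales the libraries and draws every value towards the mean of its gene, most strongly at low levels. Depth is unknown because the values are not counts. All 8 genes passed the filter of a mean rlog of at least 5 and were tested with limma among 13094 genes. The heart label was checked on 5 cardiomyocyte markers, of which none was below an rlog of 15.81. Library 1 labelled dnMCUb stood apart from the others. On the first principal component, with 46.69% of the variance, it lay at 10.8 and the other 5 libraries between -4.42 and 2.69. It had the lowest value of the 6 libraries for 5 of 5 cardiomyocyte markers and the highest for 4 of 4 fibroblast, 4 of 4 macrophage and 3 of 3 atrial markers. Of 4 endothelial markers it was highest for 1 and lowest for 0, and of 3 red cell markers it was neither highest nor lowest for any. In bulk tissue, fewer cells of a type and less RNA per cell cannot be told apart. At an adjusted p under 0.05, the share of genes called by limma was 0% between T2D empty vector and control, 0% between T2D dnMCUb and T2D empty vector, 0.0687% between T2D dnMCUb and control and 0% between the 4 diabetic libraries and control. None of the 8 genes was among those called in any of these 4 comparisons. At an unadjusted p under 0.05, limma had 6.13%, 5.64%, 11.4% and 9.69% of all genes in that order, and 0, 1, 2 and 1 of the 8 genes. These were Letm1 in the second comparison, Slc8b1 and Letm1 in the third and Slc8b1 in the fourth.

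The 8 transcripts spanned a wide range of levels, and their order was the same in all 6 libraries. Levels between genes are comparable only per length, so log2 of the length in kilobases that the table lists was subtracted from the rlog. On that scale Smdt1 was highest at a mean of 10.74, followed by Micu2 at 9.48. Mcur1 at 8.23 and Letm1 at 8.09 came next, and their gap of 0.133 compares with SDs over the 6 libraries of 0.0672 and 0.0847. Mcu stood at 6.94, Slc8b1 at 5.88, Micu3 at 5.40 and Mcub at 5.11. The gap between Micu3 and Mcub was 0.288, against SDs of 0.0266 and 0.0696, and the remaining neighbouring pairs lay further apart than that. Mcub was thus the lowest of the 8. With the length listed for Mcu, it was 0.281 times the length-adjusted level of Mcu on the linear scale.

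**Figure D1:**
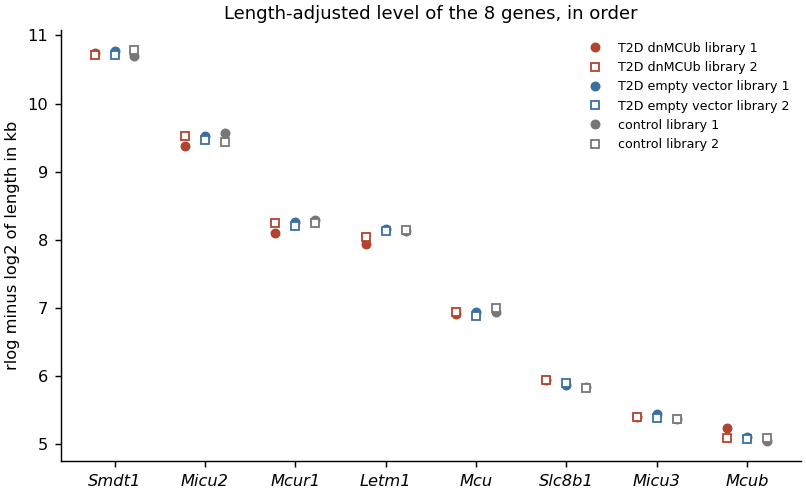
Length-adjusted level (rlog minus log2 of transcript length in kilobases, y axis) of the 8 genes in order of their mean, with 1 point per library coloured by group. Smdt1 is highest at a mean of 10.74 and Mcub lowest at 5.11, and the libraries of all groups lie close together within each gene.

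The level of Mcu depends on which transcript was counted. Its row lists Mcu-201 (ENSMUST00000009791.6, minus strand, chr10:59448597-59458160, GRCm38), with 5 exons of 1079 bases in all. The full-length Mcu-202 has 8 exons and 2872 bases, of which Mcu-201 covers 25.9%. Whether the counting ran over the listed transcript or over the whole gene is not given in the sources used here. With the length of Mcu-202 the length-adjusted level of Mcu would be 5.51 in place of 6.94, between Slc8b1 and Micu3. Mcub, at 5.11, would then lie much nearer to Mcu than the ratio of 0.281 states. The rows of Mcub, Micu2, Mcur1, Slc8b1 and Letm1 list the longest transcript of the gene, and those of Micu3 and Smdt1 list one with more coding bases than the longest. Exons of Micu3 overlap those of Fgf20, on the opposite strand, over 202 bases or 9.1% of their length, and the strand setting of the counting is not given in the sources used here. Apart from a microRNA hairpin at the same place, no other gene shares exon bases with the 8 transcripts.

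The labels were checked on Mcub, whose altered form the vector carries. Its row is ENSMUSG00000027994.14 on the minus strand at chr3:129914960-129970206, with 78.5% of the exon bases coding. Its rlog was 5.62 and 5.47 in T2D dnMCUb, 5.48 and 5.46 in T2D empty vector, against 5.42 and 5.47 in control. Library 1 labelled dnMCUb was the highest of all 6, while library 2 lay inside the range of the other 2 groups. The range of Mcub over the 6 libraries was 0.2, wider than that of 96.1% of genes within 0.5 rlog of it, whose median was 0.0818. The means were 5.55 ± 0.109 in T2D dnMCUb, 5.47 ± 0.0184 in T2D empty vector and 5.45 ± 0.0344 in control (SD, n = 2). T2D dnMCUb exceeded T2D empty vector by 0.078 (SE 0.048, 95% interval -0.034 to 0.19; limma, adjusted p = 0.888). Without library 1 labelled dnMCUb this difference was 0.00031, and without library 2 it was 0.155, which are the ends of the range over all left-out libraries. The higher mean of the labelled group therefore rests on 1 library, and every direction that involves these libraries rests on the label. Whether reads from the viral cargo entered the Mcub row is not given in the sources used here.

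The series title names an increase of MCUb in the diabetic heart, and the comparison of T2D empty vector with control bears on its transcript. Mcub stood at 5.48 and 5.46 in T2D empty vector, against 5.42 and 5.47 in control, and these values overlapped. The difference was 0.021 (SE 0.048, 95% interval -0.091 to 0.13; limma, adjusted p = 0.947), and it was -0.0036 without control library 1. Between T2D dnMCUb and control the difference was 0.098 (SE 0.048, adjusted p = 0.481 by limma). This one passed when library 2 labelled dnMCUb was left out (0.176, limma, adjusted p = 0.0302) and was 0.021 without library 1, and the range of adjusted p over all alternatives was 0.0302 to 0.9. With library 2 left out, T2D dnMCUb is library 1 alone, which the fit assumes to vary like the libraries of the other groups, and 743 of the 13094 genes passed in that fit.

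The rlog scale compresses Mcub more than any other of the 8 genes. The authors' deposited table gives Mcub a log2 fold of 0.65 between T2D dnMCUb and T2D empty vector (p = 0.195), 0.85 between T2D dnMCUb and control (p = 0.0953) and 0.20 between T2D empty vector and control (p = 0.676), each with an adjusted p of 1. The rlog differences were 0.119, 0.116 and 0.103 times these folds. At that level of expression such compression is general: over genes within 0.5 rlog of Mcub and with an authors' log2 fold of at least 0.2 in size, the median ratio was 0.112. It was 0.247 around the level of Mcu and between 0.58 and 0.61 around Smdt1, Mcur1, Letm1 and Micu2. The narrow intervals of Mcub on the rlog scale are therefore not narrow limits on its fold change.

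**Figure D2:**
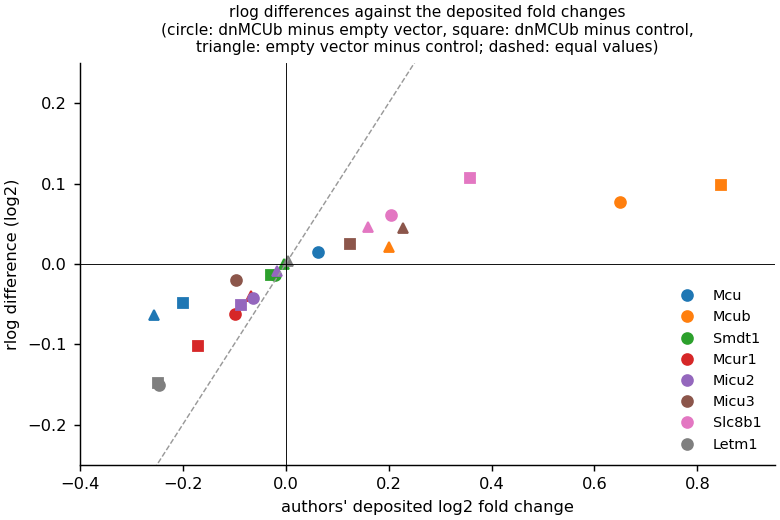
Difference of group means in rlog (y axis, log2) against the authors' deposited log2 fold change (x axis) for the 8 genes in 3 comparisons, with colours for genes, marker shapes for comparisons and a dashed line where both would be equal. Mcub lies far to the right, at deposited folds of 0.65 and 0.85 with rlog differences of 0.078 and 0.098, while Letm1 lies lowest near -0.25 on the x axis.

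Mcu encodes the pore-forming subunit. Its rlog was 7.003 and 7.04 in T2D dnMCUb, 7.04 and 6.98 in T2D empty vector, against 7.04 and 7.10 in control. Both T2D empty vector libraries were below both control libraries, and the libraries labelled dnMCUb overlapped with each of the other groups. The difference between T2D empty vector and control was -0.063 (SE 0.0394, 95% interval -0.15 to 0.029; limma, adjusted p = 0.845) and stayed between -0.093 and -0.033 with each library left out. Between T2D dnMCUb and T2D empty vector it was 0.014 (SE 0.0394, limma, adjusted p = 0.97), and it turned to -0.012 without T2D empty vector library 2 and to -0.0058 without library 2 labelled dnMCUb. The authors' deposited table gives Mcu a log2 fold of -0.26 for T2D empty vector against control (p = 0.34).

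Within a library, the gap between Mcub and Mcu sets the pore's paralogs against each other, on values that rlog had already scaled between libraries. Mcub minus Mcu was -1.38 and -1.57 in T2D dnMCUb, -1.55 and -1.53 in T2D empty vector, against -1.62 and -1.63 in control. All 4 diabetic libraries had a higher Mcub minus Mcu than the control libraries, by 0.147 in T2D dnMCUb and 0.084 in T2D empty vector. Between T2D empty vector and control, Mcub itself differed by 0.021 and Mcu by -0.063. Library 2 labelled dnMCUb, at -1.57, lay below both T2D empty vector libraries. This was not particular to Mcub. Micu3 minus Mcu and Slc8b1 minus Mcu were also higher in all 4 diabetic libraries than in control, by 0.091 and 0.132 on average. For Micu2, Smdt1, Mcur1 and Letm1 minus Mcu, the diabetic and control libraries overlapped. Among single genes, 21.9% had the 4 diabetic libraries apart from control, and the share among all gene pairs was not computed. The gap between Mcub and Mcu was not tested, and its parts are compressed to different degrees by the rlog transformation.

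Smdt1 encodes EMRE, the small subunit without which the pore of animals does not conduct. Its rlog was 10.22 and 10.21 in T2D dnMCUb, 10.26 and 10.20 in T2D empty vector, against 10.18 and 10.27 in control. The lowest and the highest value were both control libraries, and no group stood off. The difference was 0.00003 between T2D empty vector and control (SE 0.0507, 95% interval -0.12 to 0.12; limma, adjusted p = 1) and -0.014 between T2D dnMCUb and T2D empty vector (SE 0.0507; limma, adjusted p = 0.979). The first lay between -0.046 and 0.046 with each library left out, at those ends without control library 1 and control library 2. The second was 0.019 without T2D empty vector library 1.

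Mcur1, the assembly factor, had rlog values of 10.21 and 10.36 in T2D dnMCUb, 10.37 and 10.32 in T2D empty vector, against 10.40 and 10.37 in control. The libraries labelled dnMCUb lay below both control libraries, and library 1 was the lowest of the 6. Mcur1 differed by -0.10 between T2D dnMCUb and control (SE 0.0578, 95% interval -0.24 to 0.033; limma, adjusted p = 0.534) and by -0.062 between T2D dnMCUb and T2D empty vector (limma, adjusted p = 0.919). Without library 1 labelled dnMCUb these differences were -0.031 and 0.0091.

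Micu2 and Micu3 encode calcium-sensing partners of the channel. Micu2 is the more abundant, with rlog values of 10.59 and 10.73 in T2D dnMCUb, 10.73 and 10.67 in T2D empty vector, against 10.77 and 10.64 in control. Its libraries differed as much within groups as between them. The difference was -0.043 between T2D dnMCUb and T2D empty vector (SE 0.0677; limma, adjusted p = 0.945), and 0.028 without library 1 labelled dnMCUb. Between T2D empty vector and control it was -0.0085 (SE 0.0677; limma, adjusted p = 0.984), 0.057 without control library 1 and 0.023 without T2D empty vector library 2. Micu3 had the narrowest range of the 8 genes, 0.073, with 6.53 and 6.53 in T2D dnMCUb, 6.57 and 6.52 in T2D empty vector, against 6.50 and 6.50 in control. All 4 diabetic libraries were above both control libraries, by 0.035 on average (SE 0.0279; limma, adjusted p = 0.689).

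The carriers lay on opposite sides of the other groups in the libraries labelled dnMCUb, and no difference passed over all genes. Slc8b1, which encodes the exchanger NCLX, had rlog values of 7.46 and 7.46 in T2D dnMCUb, 7.39 and 7.41 in T2D empty vector, against 7.36 and 7.34 in control. The 3 groups did not overlap, with T2D dnMCUb highest and control lowest. The share of all genes with 3 groups apart was not computed. Between T2D empty vector and control, 42.4% of all genes did not overlap. That share was 32.2% between T2D dnMCUb and T2D empty vector and 42.9% between T2D dnMCUb and control. The range of Slc8b1 over the libraries was 0.117, against a median of 0.119 over genes within 0.5 rlog of it. Slc8b1 was 0.107 higher in T2D dnMCUb than in control (SE 0.0346, 95% interval 0.026 to 0.19; limma, adjusted p = 0.319), and 0.061 higher than in T2D empty vector (SE 0.0346; limma, adjusted p = 0.888). T2D empty vector was 0.046 above control (SE 0.0346; limma, adjusted p = 0.861), and the 4 diabetic libraries together were 0.076 above it (SE 0.03; limma, adjusted p = 0.484). With each library left out, these differences stayed between 0.098 and 0.115, 0.047 and 0.075, 0.032 and 0.060, and 0.068 and 0.085. The authors' deposited table gives Slc8b1 log2 folds of 0.36 (p = 0.164), 0.20 (p = 0.432) and 0.16 (p = 0.505) in the first 3 of these comparisons.

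Letm1, which encodes the proton exchanger, had rlog values of 10.33 and 10.44 in T2D dnMCUb, 10.55 and 10.52 in T2D empty vector, against 10.52 and 10.54 in control. Both libraries labelled dnMCUb were below the other 4, which lay close together. The difference was -0.151 between T2D dnMCUb and T2D empty vector (SE 0.0507, 95% interval -0.27 to -0.033; limma, adjusted p = 0.869) and -0.148 between T2D dnMCUb and control (limma, adjusted p = 0.337). Without library 1 labelled dnMCUb they were -0.0997 and -0.0966, and without library 2 they were -0.203 and -0.200. T2D empty vector and control differed by 0.0032 (SE 0.0507; limma, adjusted p = 0.992), a sign that turned without control library 1 (-0.0064), without T2D empty vector library 1 (-0.012) and with libraries centred on their median (-0.0011). The authors' deposited table gives Letm1 a log2 fold of -0.25 against T2D empty vector (p = 0.0857) and -0.25 against control (p = 0.0721), each with an adjusted p of 1.

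**Figure D3:**
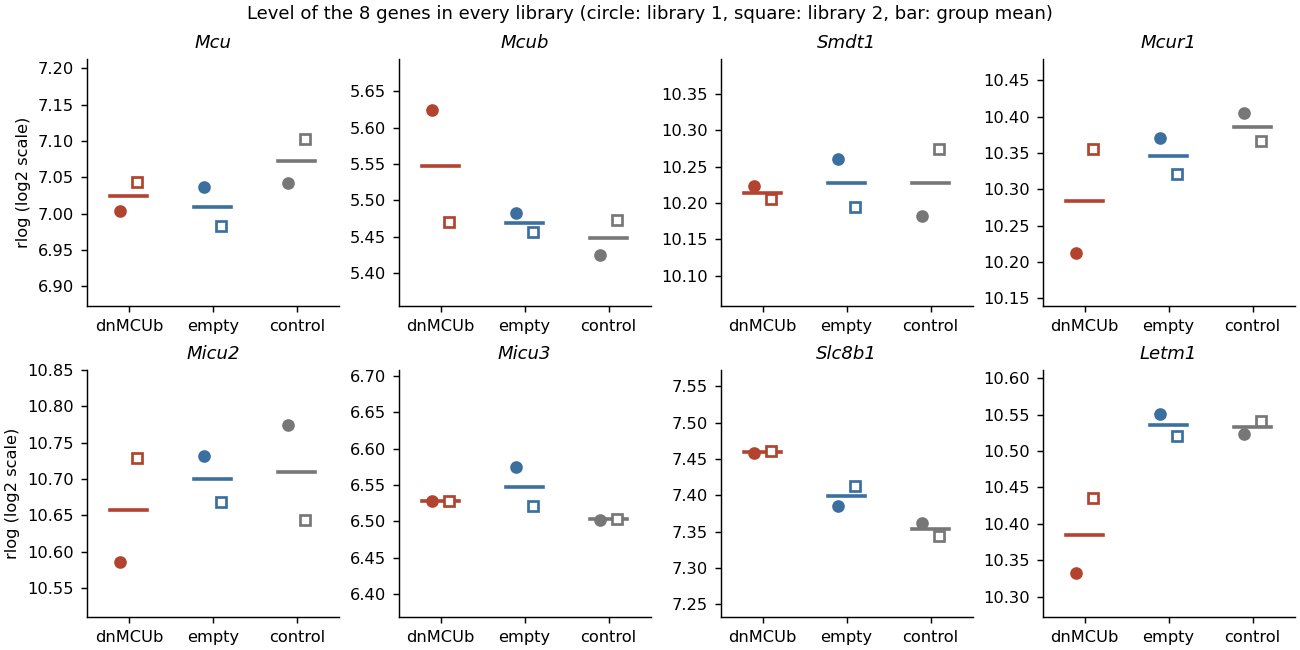
Level of each gene (rlog, y axis, the same span in every panel) in T2D dnMCUb, T2D empty vector and control, with a circle for library 1, a square for library 2 and a bar for the group mean. The Letm1 values labelled dnMCUb, 10.33 and 10.44, lie below the other 4 libraries, the Slc8b1 values lie above them, and Mcub is highest in library 1 of T2D dnMCUb.

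The rlog values of the 2 carriers lay closer to each other within the libraries labelled dnMCUb than elsewhere. Slc8b1 minus Letm1 was -2.87 and -2.98 in T2D dnMCUb, -3.17 and -3.11 in T2D empty vector, against -3.16 and -3.20 in control. The libraries labelled dnMCUb were above all others, by 0.21 over T2D empty vector and 0.25 over control. Mcub minus Letm1 was also higher in T2D dnMCUb, by 0.229 and 0.246, so such a gap was not particular to the 2 carriers. The rlog transformation compresses the parts to different degrees, with median ratios of 0.287 around Slc8b1 and 0.596 around Letm1. Relative to the pore, Letm1 minus Mcu was 3.33 and 3.39 in T2D dnMCUb, 3.52 and 3.54 in T2D empty vector, against 3.48 and 3.44 in control. Slc8b1 minus Mcu was 0.46 and 0.42 in T2D dnMCUb, 0.35 and 0.43 in T2D empty vector, against 0.32 and 0.24 in control, so the diabetic libraries were above control in both groups. These gaps were not tested, since the genes were chosen with their values known. The share of other gene pairs with groups apart was not computed.

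**Figure D4:**
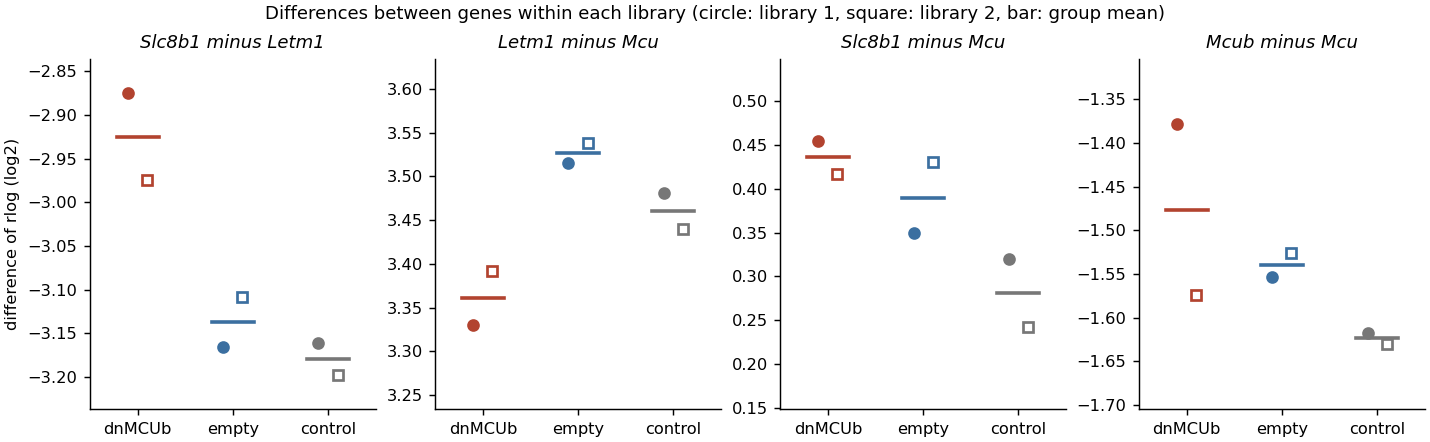
Difference between the rlog values of 2 genes of a library (y axis, log2) in T2D dnMCUb, T2D empty vector and control, with a circle for library 1, a square for library 2 and a bar for the group mean. Slc8b1 minus Letm1 is highest in T2D dnMCUb at -2.87 and -2.98, and Mcub minus Mcu is lowest in control at -1.62 and -1.63.

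Cell type markers differed between libraries, and their part in these results was not tested. Library 1 labelled dnMCUb had the lowest cardiomyocyte sum and the highest fibroblast and atrial sums. Macrophage sums were higher in both libraries labelled dnMCUb than in all others, and the red cell sum was highest in library 2 labelled dnMCUb. Summed over 5 cardiomyocyte markers, log2 of the level was 19.48 and 19.77 in T2D dnMCUb, 19.68 and 19.70 in T2D empty vector, against 19.88 and 19.80 in control. Summed over 4 fibroblast markers it was 14.83 and 14.30 in T2D dnMCUb, 14.21 and 14.48 in T2D empty vector, against 14.29 and 14.17 in control. For 4 endothelial markers it was 13.83 and 13.72 in T2D dnMCUb, 13.79 and 13.84 in T2D empty vector, against 13.78 and 13.89 in control. For 4 macrophage markers the sums were 11.36 and 11.27 in T2D dnMCUb, 11.20 and 11.13 in T2D empty vector, against 11.16 and 11.10 in control. For 3 red cell markers they were 12.18 and 12.73 in T2D dnMCUb, 11.37 and 11.41 in T2D empty vector, against 12.35 and 11.39 in control. For 3 atrial markers they were 11.37 and 8.74 in T2D dnMCUb, 8.80 and 9.24 in T2D empty vector, against 10.58 and 8.69 in control. None of these markers was at 0. Of the 8 genes, 3 were lowest in library 1 labelled dnMCUb (Letm1, Mcur1 and Micu2) and 1 was highest there (Mcub), where 27.8% and 22.6% of all genes were.

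As a group the 8 genes showed no common direction. Of the 8, 5 were higher and 3 lower in T2D empty vector than in control, with a median of 0.0016 against -0.0025 over all genes. In T2D dnMCUb, 3 were higher and 5 lower than in T2D empty vector (median -0.017, against -0.00051 over all genes), and again 3 and 5 relative to control (median -0.031, against -0.0023). The 4 diabetic libraries together had 3 higher and 5 lower than control (median -0.019, against -0.0017). Without library 1 labelled dnMCUb the medians of the last 3 comparisons were 0.0047, -0.0011 and -0.0027. Groups did not overlap for 3 of 8 genes between T2D empty vector and control, where 42.4% of all genes did so. The counts were 2 of 8 between T2D dnMCUb and T2D empty vector (32.2% of all genes), 4 of 8 between T2D dnMCUb and control (42.9%) and 2 of 8 for the 4 diabetic libraries (21.9%), each near its background. The comparisons share libraries and do not support each other.

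**Figure D5:**
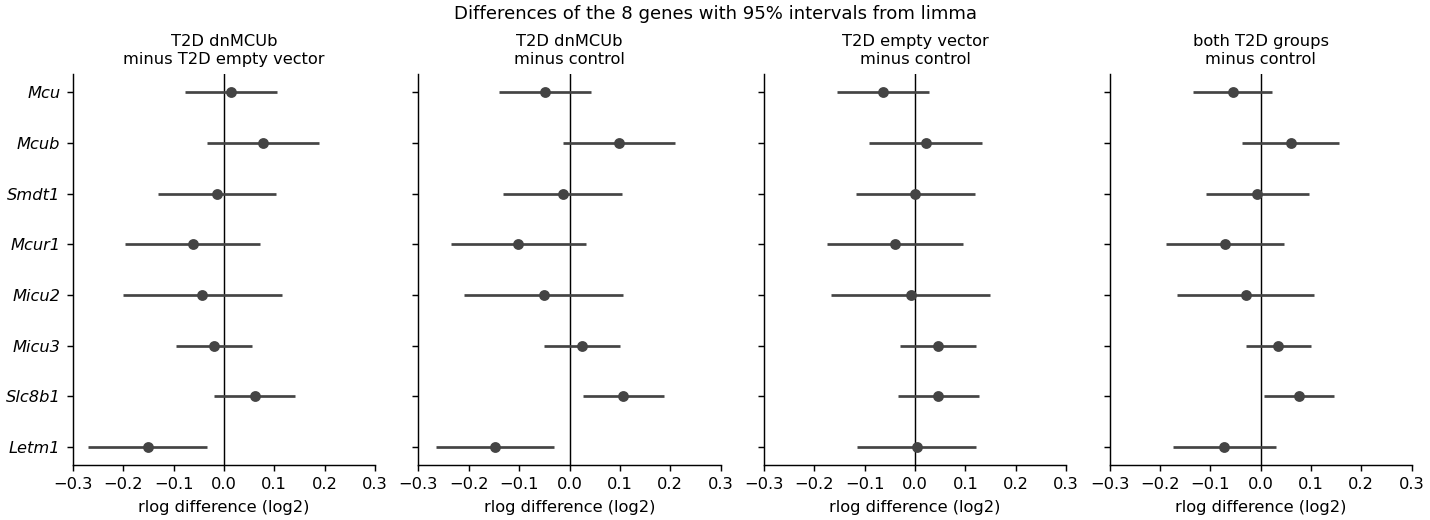
Differences of rlog (x axis, log2) of the 8 genes in 4 comparisons, with points for limma's estimate and lines for 95% intervals, not adjusted for the number of genes. The interval lies on 1 side of 0 for Letm1 in both comparisons with T2D dnMCUb alone and for Slc8b1 in T2D dnMCUb and in both T2D groups against control.

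The profiles of Mcu and Mcub over the 6 libraries were set against those of 13093 other genes by the root mean square difference after each gene's mean was removed. Nearest to Mcu were Pdcd11 (0.0071), Gm7842 (0.0072) and Zfp691 (0.00851). Nearest to Mcub were Stx2 (0.0134), Gulp1 (0.0139) and Ptbp3 (0.0146), each highest in library 1 labelled dnMCUb. The measure separates genes weakly, since 38.7% of genes lay within 0.05 of Mcu and 10.5% within 0.05 of Mcub.

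Other genes of mitochondrial calcium were read from 3 lists, and none was called in any comparison. The first list holds 11 partners of the uniporter and of the exchangers, such as the proteases that process EMRE. In T2D dnMCUb 5 were higher and 6 lower than in T2D empty vector (median -0.018, against -0.00051 over all genes), and the same counts held for T2D dnMCUb against control (median -0.041) and for T2D empty vector against control (median -0.0034). Without library 1 labelled dnMCUb, 8 were higher and 3 lower than in T2D empty vector (median 0.0252), and 7 higher and 4 lower than in control (median 0.0218), so both medians turned. The smallest p was that of Letm2, a paralog of Letm1, in 3 of the 4 comparisons. Letm2 had rlog values of 6.47 and 6.46 in T2D dnMCUb, 6.45 and 6.46 in T2D empty vector, against 6.38 and 6.40 in control. It was 0.067 higher in the 4 diabetic libraries than in control (SE 0.0254; limma, adjusted p = 0.469). Creb1, a transcription factor, led between T2D dnMCUb and T2D empty vector (0.091, SE 0.0527; limma, adjusted p = 0.888). Its rlog was 9.80 and 9.70 in T2D dnMCUb, against 9.62 and 9.69 in T2D empty vector. The difference was 0.041 without library 1 labelled dnMCUb, 0.140 without library 2 and 0.057 without T2D empty vector library 1.

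The second list holds 12 genes that bring calcium to the organelle across the outer membrane and its contacts with the reticulum. Of these, 4 were higher and 8 lower in T2D dnMCUb relative to T2D empty vector (median -0.025), 2 higher and 10 lower than in control (median -0.071), and 5 higher and 7 lower in T2D empty vector than in control (median -0.029). Library 1 labelled dnMCUb was the lowest of the 6 for 7 of the 12, against 27.8% of all genes. Without it, 6 were higher and 6 lower than in T2D empty vector (median -0.00745), and 4 higher and 8 lower than in control (median -0.0363). Ryr2, the calcium release channel of the sarcoplasmic reticulum, had rlog values of 15.61 and 15.78 in T2D dnMCUb, 15.91 and 15.94 in T2D empty vector, against 15.85 and 15.83 in control. Its difference between T2D dnMCUb and T2D empty vector was -0.23 (SE 0.0959; limma, adjusted p = 0.869), and -0.145 without library 1 labelled dnMCUb. Rmdn3, a tether to the reticulum, differed by -0.118 between T2D empty vector and control (SE 0.0465; limma, adjusted p = 0.805), and by -0.072 without control library 2. Vdac2, a channel of the outer membrane, led between T2D dnMCUb and control (-0.149, SE 0.0766; limma, adjusted p = 0.497). Its rlog was 12.51 and 12.72 in T2D dnMCUb, against 12.77 and 12.76 in control, and with library 2 as the sole T2D dnMCUb library the difference was -0.047, with library 1 as the sole one -0.250.

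The third list holds 11 calcium-regulated mitochondrial targets, among them subunits of isocitrate dehydrogenase and carriers with calcium-binding domains. Of these 1 was higher and 10 lower in T2D dnMCUb relative to T2D empty vector (median -0.059), and 2 were higher and 9 lower than in control (median -0.093). In T2D empty vector 5 were higher and 6 lower than in control (median -0.031). Library 1 labelled dnMCUb was the lowest of the 6 for 8 of the 11, against 27.8% of all genes. It was also lowest for 5 of 5 cardiomyocyte markers, and a link between these was not tested. Without it the first 2 medians were 0.020 and -0.0029, and 6 were higher and 5 lower than in T2D empty vector. Slc25a24, a calcium-dependent carrier of ATP and phosphate, had the smallest p in both comparisons with T2D dnMCUb, at 0.144 over T2D empty vector (SE 0.0948; limma, adjusted p = 0.888) and 0.213 over control (SE 0.0948; limma, adjusted p = 0.45). Its rlog was 8.33 and 8.01 in T2D dnMCUb, 7.98 and 8.08 in T2D empty vector, against 7.93 and 7.99 in control, so library 1 labelled dnMCUb was the highest. Without that library the differences were -0.018 and 0.051, and without library 2 they were 0.305 and 0.374. Without T2D empty vector library 1 the first was 0.095. Pdp1, the calcium-stimulated phosphatase that activates pyruvate dehydrogenase, was at -0.086 between T2D empty vector and control (SE 0.055; limma, adjusted p = 0.849), at -0.037 without control library 1 and at -0.134 without control library 2. Ppif, which encodes cyclophilin D of the permeability transition pore, was at -0.128 in the 4 diabetic libraries against control (SE 0.0597; limma, adjusted p = 0.536), and at -0.080 without library 1 labelled dnMCUb.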

How the data were processed

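RNA was extracted from heart tissue and libraries were made with a stranded kit after removal of ribosomal RNA, per the labels' protocols. Builds GRCm38, mm10 and hg38 and the tools STAR 2.5.2a, DESeq2 and bcl2fastq 2.20.0.422 are listed, with no roles, per the submitters' processing notes. The counting program is not given in the sources used here. The authors deposited rlog values on the log2 scale, with their own log2 fold changes, p-values and adjusted p-values for 3 comparisons. All 71, 8 and 104 tested genes with an authors' adjusted p under 0.05 had the sign of the rlog difference of T2D empty vector minus control, T2D dnMCUb minus T2D empty vector and T2D dnMCUb minus control. No counts were given, so depth is unknown, and 0 columns of per-sample values were left unused.

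Of 54352 rows, 22778 were listed at 0 in all libraries, and the 13094 with a mean rlog of at least 5 entered the test, run in R 4.3.3 with limma 3.58.1. One fit held all 6 libraries with a term per group, a mean-variance trend, 3 residual and 4.6 prior degrees of freedom, and Benjamini-Hochberg adjustment at 0.05. The code was tested on simulated data with planted differences of 0.5 and 1 on the log2 scale. The differences of the 8 genes were smaller, so the simulation does not show how often such sizes would be found. Comparisons are the group named first minus the other, and an exact permutation test of 2 against 2 libraries was not used, as it cannot pass. Transcripts were read from GENCODE M21, in which all 8 genes were found at the deposited coordinates. The table's transcript lengths served for length adjustment.

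The 8 genes and the lists were chosen with earlier results of these data known. Named are the 8 genes, list genes that were called or had the smallest p of a list in a comparison, and the 3 nearest profiles of Mcu and of Mcub. Alternatives were the libraries in the fit, the filter, centring, the trend, a replicate block and leaving out each library. Leaving out library 1 labelled dnMCUb in list summaries, leaving out each library for the named list genes, and a crossed pairing were added after the data were seen.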

Additional observations from a re-analysis of the deposited data

How the results depend on the processing

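None of the 8 genes was called in any comparison under any alternative, except Mcub between T2D dnMCUb and control without library 2 labelled dnMCUb. With settings other than a left-out library, 182 of 184 differences kept their direction and their side of the threshold. The exceptions were Smdt1 (-0.0042) and Letm1 (-0.0011) between T2D empty vector and control, with libraries centred on their median. Only this centring could change a direction, since the other settings leave the differences as they are. For the 4 diabetic libraries against control, the setting with only the libraries compared repeats the main fit. Mcub and Micu3 were not tested under a minimum mean rlog of 7. With a library left out, 171 of 192 differences kept their direction and their side of the threshold. Where that library was in neither group compared, the difference itself could not change. Differences that changed sign ranged, between T2D empty vector and control, from -0.0036 to 0.045 for Mcub, -0.074 to 0.057 for Micu2, -0.046 to 0.046 for Smdt1 and -0.012 to 0.018 for Letm1. Between T2D dnMCUb and T2D empty vector they ranged from -0.012 to 0.041 for Mcu, -0.115 to 0.028 for Micu2, -0.047 to 0.0073 for Micu3, -0.047 to 0.019 for Smdt1 and -0.133 to 0.0091 for Mcur1. Between T2D dnMCUb and control they ranged from -0.123 to 0.020 for Micu2 and -0.060 to 0.032 for Smdt1, and for the 4 diabetic libraries against control from -0.095 to 0.035 for Micu2 and -0.053 to 0.039 for Smdt1.

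Counts of genes called moved more. Between T2D empty vector and control, 0 genes were called by limma with all libraries (803 at an unadjusted p under 0.05), 30 with only the libraries compared and 71 by the authors' deposited adjusted p. Between T2D dnMCUb and T2D empty vector the counts were 0 (739 unadjusted) and 8 by the authors' deposited table. Between T2D dnMCUb and control, 9 were called, against 29 with a minimum mean rlog of 7 and 104 by the authors' deposited table. That count was 0 with only the libraries compared, with no filter, with centred libraries, with no trend and with the replicate block. For the 4 diabetic libraries against control 0 were called (1269 unadjusted). Leaving out each library in turn gave 0 to 30, 0 to 14, 0 to 743 and 0 to 314 genes in these comparisons, where the group left with 1 library is assumed to vary like the others. The cause was not tested. Same-numbered libraries share only a number, and differences between libraries 1 and 2 correlated over genes at -0.511 between T2D dnMCUb and T2D empty vector. With the pairing crossed, 0 genes were called there, as with the replicate block. Depth, which would show how firmly low genes such as Mcub are measured, is unknown.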
